A study of Homo sapiens with 18 samples.

Results

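The genes described here are the 255 protein-coding zinc finger genes named ZNF500 to ZNF899, picked by symbol alone out of 62649 gene IDs in the deposited count files. They were followed in 2 human lung lines, A549 (an alveolar carcinoma line) and BEAS-2B (an immortalised bronchial epithelial line), both labelled wild type. Cells on membrane inserts at the air-liquid interface were exposed for 4 h to clean air, to complete wood smoke aerosol or to filtered wood smoke aerosol, and mRNA was sequenced in 3 libraries of each of the 6 groups. The filtered aerosol asks what the smoke does without the particles that filtering takes out, and clean air in the same modules is the control of each line. Each line was grown in its own medium. Separate cultures or exposures are not named for the 3 libraries of a group, so a p-value here speaks of the spread among those libraries, part of which could be technical. Levels are given in CPM, read counts scaled to a common library size with edgeR's TMM factors, and a gene "passed" where its Benjamini-Hochberg adjusted p from edgeR's quasi-likelihood test, over all genes tested, was under 0.05.

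Most ZNF proteins are DNA-binding proteins built of repeated C2H2 fingers, in which cysteines and histidines hold a zinc ion and each finger reads a few bases. Many also carry a KRAB box, a short domain that recruits the corepressor KAP1 (gene TRIM28), and through it a histone methyltransferase, heterochromatin proteins and DNA methylation, mostly onto transposable elements. KRAB zinc finger genes arose by tandem duplication and lie in clusters, above all on chromosome 19, and their mRNAs are generally scarce and described as short-lived. Members without a KRAB box have varied roles, in ribosome assembly, splicing, chromatin complexes and development.

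A KRAB box was found in 172 of the 255 members, by scoring coding sequences translated from the GENCODE v29 transcripts, and 83 had none. The median number of C2H2 fingers was 10, from 0 to 39, and it was 11 with a KRAB box and 8 without. On chromosome 19 lay 133 members (52.2%), against 7.37% of the 13826 protein-coding genes tested in a fit of both lines. With a KRAB box the share on chromosome 19 was 65.7%, and without one 24.1%. The median gene span was 26.7 kb with a KRAB box and 14.4 kb without, against 33.2 kb over the tested protein-coding genes. Clusters of at least 5 members less than 500 kb apart numbered 11 and held 137 members.

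Promoters separated the classes as well. RefSeq promoters (GRCh38.p14, 250 bases before to 50 after the start) were given for 210 members, 145 with and 65 without a KRAB box, and for 15301 protein-coding genes in all. The letters CCGGAAG of an ETS factor site, on either strand, stood in 45.5% of KRAB promoters, in 26.2% of the other members' and in 14.4% of all. CCAAT stood in 56.6%, 33.8% and 36.6%, and the letters of an NRF1 site in 9.66%, 24.6% and 8.61%. TATAAA was in 3.33% of member promoters against 9.59% of all, TGACGTC (a CRE core) in 4.29% against 4.64%, GGGGCGGGG (an SP site) in 22.9% against 22.8%, and the letters of a YY1 site in 1.90% against 1.98%. The median number of CG dinucleotides was 20 with a KRAB box, 28 without and 22 over all. Matches of different motifs may overlap, and a match is a description of letters and not a site shown to be bound.

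The 150 bases upstream of the start are shown for 2 members that rose after smoke in both lines (ZNF593 and ZNF771) and for 2 KRAB members that fell in both (ZNF585A and ZNF678), 5′ to 3′ on the gene's strand, with letters of the searched motifs in capitals. The windows are chr1:26169758-26169907 (plus strand), chr16:30407456-30407605 (plus), chr19:37172696-37172845 (minus) and chr1:227563406-227563555 (plus).
ZNF593: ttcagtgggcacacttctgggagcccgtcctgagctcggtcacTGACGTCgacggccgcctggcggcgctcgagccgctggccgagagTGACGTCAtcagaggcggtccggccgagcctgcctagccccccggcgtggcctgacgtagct
ZNF771: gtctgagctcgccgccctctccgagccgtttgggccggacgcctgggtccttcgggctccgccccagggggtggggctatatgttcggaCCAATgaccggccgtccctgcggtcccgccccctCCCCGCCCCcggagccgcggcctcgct
ZNF585A: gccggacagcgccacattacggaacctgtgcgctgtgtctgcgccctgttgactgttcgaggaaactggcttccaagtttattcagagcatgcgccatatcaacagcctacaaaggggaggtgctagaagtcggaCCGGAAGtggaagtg
ZNF678: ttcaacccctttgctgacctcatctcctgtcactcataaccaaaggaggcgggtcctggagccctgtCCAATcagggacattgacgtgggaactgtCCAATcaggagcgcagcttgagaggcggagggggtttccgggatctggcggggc
The ZNF593 window held CRE core letters at 2 places, the second matching on both strands, and the ZNF771 window a CCAAT box and the reverse complement of the SP letters. Each held 18 CG dinucleotides, against 9 in the ZNF585A window, whose ETS letters lay next to the start, and 6 in that of ZNF678, which had 2 CCAAT boxes. The medians given above are for whole promoters, in which ZNF593, ZNF771, ZNF585A and ZNF678 held 30, 34, 17 and 9. ZNF593 and ZNF771 have no KRAB box, so class and direction of change cannot be told apart in these windows.

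Libraries held 14438397 to 21432089 counts in genes in A549 cells and 28532235 to 55032499 in BEAS-2B cells. All 6 epithelial markers were at 1 CPM or more in every group, all 6 A549 markers in the A549 groups and all 6 basal bronchial markers in the BEAS-2B groups. Of the basal markers 3 also reached 1 CPM in every A549 group, and of the A549 markers 2 or 3 in the BEAS-2B groups. In clean air the summed A549 markers were at 11753 to 13823 CPM in A549 and 9.57 to 19.4 in BEAS-2B cells. The summed basal markers were at 45.8 to 63.3 and 1072 to 2070 CPM. The basal marker TP63 went the other way, at 15.3 and 9.21 CPM. Of 8 markers of blood, endothelial, alveolar type II, ciliated and club cells at most 1 reached 1 CPM in any group, and their summed level was 0.428 to 3.49 CPM. In bulk RNA, fewer cells of a kind and less RNA per cell cannot be told apart. The BEAS-2B clean air library 1 and the BEAS-2B complete smoke library 3 stood apart from their groups, the latter with 31.7% of reads mapping to several places against 10.2% and 12.9% in the other complete smoke libraries. Clean air library 1 had 4.00% of reads unmapped against 1.36% and 1.15%, and 3.05% outside genes against 4.88% and 5.78%. Its members were lower too, as given below. No set limit was used to name these libraries. BEAS-2B filtered smoke library 3 was kept, though 19.2% of its reads mapped to several places against 10.8% and 11.7%. For BEAS-2B cells the counts of members, of KRAB members, of clusters, of related families and of the KAP1 pathway are given with and without both clean air library 1 and complete smoke library 3. Of the ZNF members named here, none of the BEAS-2B smoke calls was lost without both.

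Of the 255 members, 189 had enough counts to be tested in A549 cells (121 with a KRAB box) and 220 in BEAS-2B cells (149 with one). In both lines 187 were tested, 2 only in A549, 33 only in BEAS-2B and 33 in neither. No read was counted in any library for 33 members in A549, 17 in BEAS-2B and 15 in both. The members that could be tested are therefore those with a level, and the counts below do not speak for the others.

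Members without a KRAB box stood at the top of the levels in clean air. Per kb of exon, the 8 highest in A549 cells were ZNF664, ZNF622, ZNF770, ZNF592, ZNF768, ZNF638, ZNF593 and ZNF574, and in BEAS-2B cells ZNF622, ZNF593, ZNF664, ZNF768, ZNF770, ZNF830, ZNF644 and ZNF638, and none of these has a KRAB box. The median level was 0.628 CPM per kb with a KRAB box and 2.56 without in A549 cells, and 0.814 and 1.88 in BEAS-2B cells. ZNF664 led in A549 cells at 31.5 ± 1.44 CPM per kb (SD, n = 3), ahead of ZNF622, a factor of large ribosomal subunit maturation, at 23.2 ± 2.31 and ZNF770 at 17.5 ± 0.748, each apart from the next beyond its SD. In BEAS-2B cells ZNF622 (44.0 ± 17.2 CPM per kb) and ZNF593, a factor that travels with precursors of the large ribosomal subunit (42.3 ± 32.1), did not differ beyond their spread from each other or from ZNF664 (27.0 ± 6.77).

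**Figure D1:**
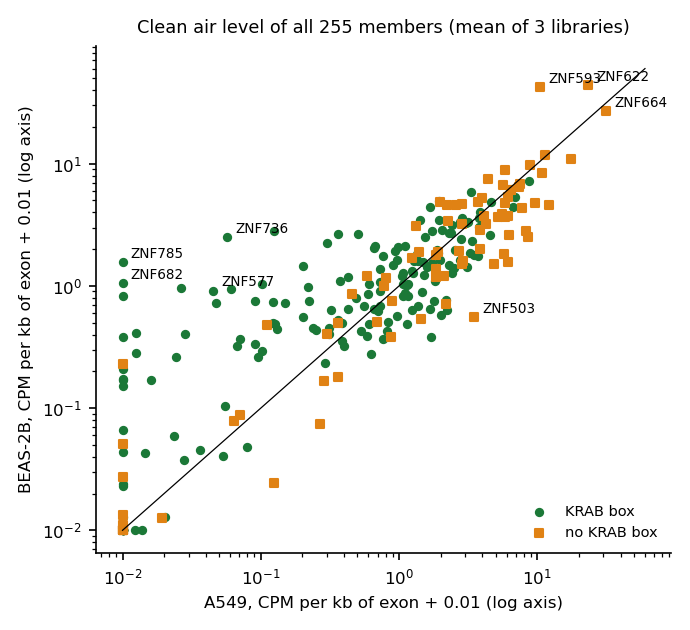
Mean clean air level of each of the 255 members over 3 libraries, in CPM per kb of exon plus 0.01 on log axes, A549 across and BEAS-2B up, with the line of equal levels. KRAB members (circles) lie lower than the others (squares) and a column of them at the left edge has no count in A549 cells, among them ZNF785 and ZNF682.

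The lines differed in many members in clean air, as they did in many genes at large. Of 218 members 68 (31.2%) were higher in BEAS-2B and 45 (20.6%) higher in A549 cells at an adjusted p under 0.05 (edgeR), against 27.3% and 28% of all genes. No call was made for 105 of the 218 members and for 7904 of all 17703 genes. The KRAB members leaned to BEAS-2B, with 57 higher there and 23 lower of 147, and the others to A549, with 11 higher in BEAS-2B and 22 lower of 71. The median log2 difference, BEAS-2B minus A549, was 0.31 with a KRAB box and −0.22 without, against 0.01 over all genes (0.20, −0.34 and −0.11 with library size alone), and it reached 0.64 for KRAB members on chromosome 19, of which 45 were higher in BEAS-2B and 13 lower of 98. The lines also differ in medium, in the series of their sample names and in counts per library. Line cannot be told apart from any of these. Without the 2 libraries that stood apart the counts were 75 higher and 41 lower of 219, with 63 higher and 17 lower of 148 KRAB members (median 0.45) and 12 higher and 24 lower of 71 others (−0.27). All genes in that fit were 26.9% higher and 28.2% lower.

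Several KRAB members were close to on or off between the lines. ZNF649 stood at 0.517, 0.584 and 0.408 CPM in the A549 clean air libraries and at 10.2, 12.8 and 13.4 in those of BEAS-2B, a log2 difference of 4.57 ± 0.25 (SE, adjusted p = 1.44e-10, edgeR). Neighbouring ZNF577 differed by 4.61 ± 0.39 (adjusted p = 3.11e-08), ZNF600 by 4.21 ± 0.32 (8.98e-09) and ZNF736, on chromosome 7, by 5.78 ± 0.56 (1.63e-07), all higher in BEAS-2B with no overlap of libraries. In the other direction ZNF503, a developmental corepressor of the NET family, stood at 8.99 to 13.9 CPM in A549 and 1.10 to 2.42 in BEAS-2B clean air, a difference of −2.68 ± 0.28 (5.19e-07). ZNF792, a KRAB member, differed by −2.18 ± 0.25 (1.44e-06) and ZNF532 by −1.99 ± 0.35 (1.40e-04). ZNF532, ZNF592 and ZNF687 are known as partners in a chromatin module with ZMYND8, and all 3 were higher in A549 cells, ZNF592 by −1.40 ± 0.20 (1.38e-05) and ZNF687 by −0.68 ± 0.17 (0.00244).

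A set of 5 KRAB members with a mean of at least 1 CPM in BEAS-2B clean air had no count in any of the 9 A549 libraries. They were chosen after their values were seen. ZNF785 was at 7.66 ± 0.421 CPM in BEAS-2B clean air, at least 49.4-fold higher than the highest level that 3 counts would give in an A549 clean air library. For ZNF682 (5.19 ± 0.319 CPM) the bound was 33.5-fold, for ZNF563 (2.30 ± 0.309) 14.9-fold, for ZNF667 (1.26 ± 0.0806) 8.11-fold and for ZNF626 (1.06 ± 0.211) 6.87-fold. All but ZNF785, on chromosome 16, lie on chromosome 19. ZNF750, a regulator of epidermal differentiation without a KRAB box, stood at 0.647 to 0.964 CPM in BEAS-2B clean air and had no count in A549 clean air, and ZNF521, known from blood progenitors, was at 0.143 CPM or less in every library.

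After smoke most tested members stood lower than in clean air. In A549 cells 56 members fell and 6 rose after complete smoke and 88 fell and 10 rose after filtered smoke, of 189. The background was 16.9% of all 15244 genes lower and 15.6% higher after complete smoke, and 23.5% lower and 23.1% higher after filtered smoke (32.5% and 46.7% in either direction), so that 29.6% and 46.6% of the tested members fell. Their median log2 fold change was −0.49 and −0.62, against 0.02 and 0.01 over all genes. In BEAS-2B cells 74 fell and 8 rose after complete smoke and 95 fell and 16 rose after filtered smoke, of 220, against 19.5% and 24.9% of all 16356 genes lower and 21.5% and 23.6% higher (41% and 48.6% in either direction). The medians there were −0.62 and −0.71, against −0.06 and −0.07 over all genes.

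The fall showed in the libraries as well as in the fits. All 3 smoke libraries lay below all 3 clean air libraries for 88 members (46.6%, against 27.6% of all genes) in A549 complete smoke and for 105 (55.6%, against 30.2%) in A549 filtered smoke, and for 88 (40.0%, against 24.7%) and 115 (52.3%, against 30.6%) in BEAS-2B. The summed level of KRAB members was 1023, 1154 and 994 CPM in A549 clean air libraries 1 to 3, against 646, 709 and 877 after complete and 567, 625 and 789 after filtered smoke. In BEAS-2B cells it was 916, 1252 and 1290 CPM in clean air, 606, 681 and 857 after complete and 596, 706 and 785 after filtered smoke. No smoke library of a line reached any of its clean air libraries in this sum.

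**Figure D2:**
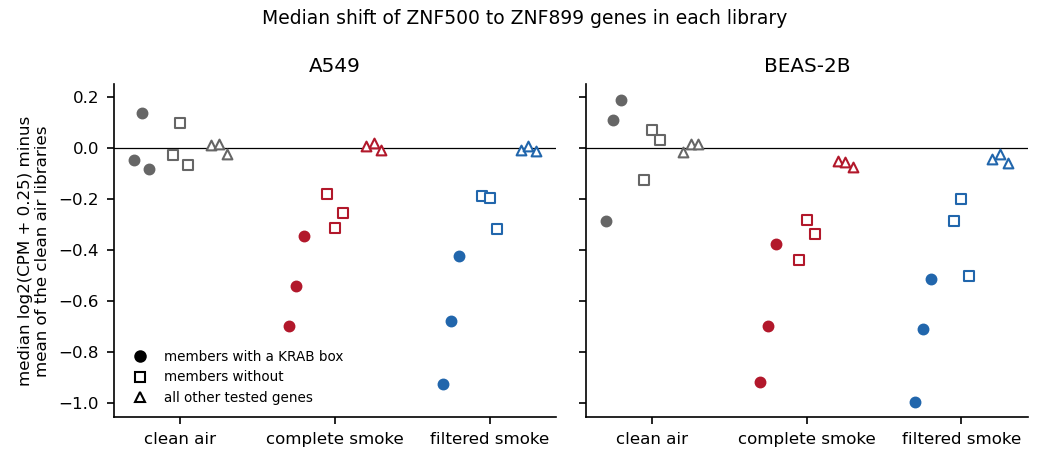
Median over genes of log2(CPM + 0.25) minus the mean of the line's clean air libraries, for each of the 18 libraries (one point each), in members with a KRAB box (filled circles), members without (squares) and all other tested genes (triangles). KRAB members sit between −0.34 and −0.995 in every smoke library, while all other genes stay between −0.08 and 0.02.

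The size of the fall differed between libraries of a group. The median shift of all members was −0.58, −0.49 and −0.31 in A549 complete smoke libraries 1 to 3 and −0.78, −0.63 and −0.38 in the filtered ones, and −0.85, −0.66 and −0.37 and −0.88, −0.64 and −0.51 in BEAS-2B cells. The BEAS-2B clean air library 1 was itself at −0.25, against 0.10 and 0.16 in the other 2. Reads outside genes moved with this. They made up 5.68% to 6.71% of reads in A549 clean air, 2.83% to 5.62% after complete and 2.24% to 4.46% after filtered smoke, and in BEAS-2B 3.05% to 5.78%, 1.08% to 8.5% and 0.952% to 2.33%, and their part in the result was not tested.

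The count of members that passed depended on single libraries while the medians did not change sign. In A549 complete smoke 13 rose and 95 fell with the replicate number as a block (edgeR), and the count of 62 without the block went to 21 or 15 without complete smoke library 1 or 2 and to 30, 20 or 29 without clean air library 1, 2 or 3. With the block 27.3% of all genes fell and 27.3% rose. Leaving out complete smoke library 1 or 2 gave 7.62% or 5.72% of all genes lower and 5.11% or 3.39% higher. For clean air library 1, 2 or 3 it was 8.84%, 7.99% or 9.11% lower and 4.40%, 3.99% or 5.47% higher. In A549 filtered smoke the count went from 98 to 54 without filtered library 1, 53 without filtered library 2 and 59 without clean air library 2. Of all genes 14.8%, 13.9% and 16.7% were lower and 12.2%, 11.8% and 13.3% higher in those fits. In BEAS-2B cells the 82 of complete smoke became 42 and 43 without complete smoke libraries 1 and 2, 35 without clean air library 2 or 3 and 126 without complete smoke library 3, and the 111 of filtered smoke became 68 and 65 without filtered libraries 1 and 2 and 61 and 56 without clean air libraries 2 and 3. Over all genes those complete smoke fits, in that order, gave 10.2%, 9.61%, 9.02%, 8.60% and 27.9% lower. They gave 11.3%, 12.9%, 8.88%, 8.84% and 25.4% higher. No share of all genes is set beside the BEAS-2B filtered smoke counts of single libraries left out. Those counts show only how the number of members moved. Without both libraries that stood apart, 121 fell and 24 rose of 221 in complete smoke (median −0.90) and 117 fell and 26 rose in filtered smoke (median −0.76). All genes gave 31.7% lower and 31.8% higher, and 31.3% lower and 32.1% higher, in these 2 comparisons. With library size alone as the scale, the median of all BEAS-2B genes moved to −0.75 and −0.74 and that of the members to −1.29 and −1.39. On that scale 136 members fell and 3 rose in complete smoke, where 41.8% of all genes were lower and 9.36% higher. For filtered smoke 150 members fell and 5 rose, with no share of all genes set beside them. Changes in this line are therefore relative to the TMM scale. BEAS-2B medians above 0 by less than the shift of all genes would lie below 0 on the scale of library size alone. Those given below for parts of chromosome 19 and for the shortest and second classes of gene span are of this kind, with 1 exception. The median of other short genes after filtered smoke (0.69) is about as large as the shift. Medians without the 2 libraries that stood apart were not put on that scale. In A549 cells that scale moved the median of all genes to −0.10 and −0.15.

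KRAB members that passed were mostly lower after smoke. In A549 cells 38 fell and 1 rose of 121 after complete smoke (median −0.57) and 61 fell and none rose after filtered smoke (−0.70), or 31.4% and 50.4% lower against the 16.9% and 23.5% of all genes, and members without a KRAB box gave 18 lower and 5 higher of 68 tested (−0.23) and 27 lower and 10 higher (−0.29). In BEAS-2B cells 54 KRAB members fell and 2 rose of 149 (−0.65) and 68 fell and 2 rose (−0.78), or 36.2% and 45.6% lower against 19.5% and 24.9% of all genes, beside 20 lower and 6 higher of 71 (−0.50) and 27 lower and 14 higher (−0.27) without the box. The difference between the classes was not tested. The number of KRAB members that fell rested on single libraries. In A549 complete smoke the 38 became 67 with the replicate block, 7 and 6 without complete smoke libraries 1 and 2, 17, 7 and 15 without clean air libraries 1, 2 and 3 and 23 in a fit of all 18 libraries. In A549 filtered smoke the 61 became 30 without filtered library 1 or 2 and 34 without clean air library 2, beside 14.8%, 13.9% and 16.7% of all genes. In BEAS-2B complete smoke the 54 became 26 and 25 without complete smoke libraries 1 and 2, 22 and 23 without clean air libraries 2 and 3, 82 without complete smoke library 3 and 87 with the block, and in filtered smoke the 68 became 44 and 41 without filtered libraries 1 and 2 and 40 and 38 without clean air libraries 2 and 3. Genes lower in those complete smoke fits made up 10.2%, 9.61%, 9.02%, 8.60%, 27.9% and 32.7% of all, in that order. For those BEAS-2B filtered smoke fits the share of all genes is not given, so their counts are not set against it. Without both libraries that stood apart, 90 KRAB members fell and 4 rose in BEAS-2B complete smoke (60.4% lower against 31.7% of all genes, median −0.96, and −0.55 without the box) and 85 fell and 5 rose in filtered smoke (57% against 31.3%, −0.88 and −0.15).

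KRAB members with the ETS letters in their promoter had medians of −0.53 (53 members) and −0.66 in A549 and −0.66 (61 members) and −0.75 in BEAS-2B cells, and those without the letters −0.63 (55) and −0.80, −0.66 (69) and −0.93.

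ZNF776 is a strong case among the KRAB members that fell in both lines, and not a typical one. In A549 cells it had the lowest adjusted p of the KRAB members under each aerosol (edgeR). Its changes were larger than the KRAB medians (−0.57 and −0.70 in A549, −0.65 and −0.78 in BEAS-2B cells). It is a chromosome 19 gene with 9 fingers, and stood at 20.6, 23.3 and 17.8 CPM in A549 clean air, 8.27, 9.44 and 9.55 after complete and 7.24, 7.30 and 9.63 after filtered smoke. In BEAS-2B cells it was at 9.95, 19.2 and 20.9 CPM in clean air, 3.84, 4.28 and 7.2 after complete and 4.74, 6.12 and 7.45 after filtered smoke. The smoke libraries lay below the clean air libraries in both lines. The log2 fold changes were −1.17 ± 0.17 (SE, adjusted p = 0.00231, edgeR) and −1.34 ± 0.17 (9.25e-04) in A549 and −1.66 ± 0.35 (0.00832) and −1.44 ± 0.35 (0.0119) in BEAS-2B cells, and they passed in each of the 18 or 19 fits run. It shares 12% of its exon bases with another gene on the strand, whose reads may be split between the 2.

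ZNF792, a KRAB gene with 13 fingers, gave the lowest fold change of BEAS-2B complete smoke among the KRAB members that passed. It went from 1.76, 1.47 and 1.49 CPM in clean air to 0.183, 0.214 and 0.147 after complete and 0.245, 0.325 and 0.389 after filtered smoke. The change was −3.08 ± 0.33 (adjusted p = 0.00152, edgeR) and −2.28 ± 0.31 (0.00242), and in A549 cells −1.48 ± 0.26 (0.00463) and −1.23 ± 0.26 (0.00535). ZNF678, ZNF585A and ZNF708, all KRAB genes, fell in both lines too. ZNF678 went from 7.65 to 10.3 CPM in A549 clean air to 1.55 to 5.37 CPM after filtered smoke (−1.54 ± 0.40, adjusted p = 0.0124), and in BEAS-2B cells from 4.53 to 12 CPM to 1.60 to 2.09 (−2.34 ± 0.48, 0.00701). ZNF708 changed by −1.04 ± 0.23 (0.00694) and −2.39 ± 0.46 (0.0058) after filtered smoke in the 2 lines, and ZNF585A by −1.36 ± 0.41 (0.0219) and −1.69 ± 0.42 (0.0128). The call of ZNF585A in A549 filtered smoke was lost without filtered library 1 or 2 or clean air library 2 or 3, with adjusted p up to 0.0842.

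KRAB members that rose were few. In A549 complete smoke the 1 that passed was ZNF846, named after its value was seen, with 0.258, 0.389 and 0.662 CPM in clean air and 1.07, 1.08 and 1.14 after smoke (1.33 ± 0.40, adjusted p = 0.0302, edgeR). ZNF880, on chromosome 19, stood at 2.39, 2.41 and 3.26 CPM in BEAS-2B clean air and at 5.64, 5.13 and 5.14 after complete smoke (a log2 fold change of 0.998 ± 0.20, adjusted p = 0.00681, edgeR) and 4.90, 5.04 and 4.87 after filtered smoke (0.87 ± 0.20, 0.00954). All 6 smoke libraries lay above the 3 clean air libraries, and the calls were lost with library size alone as the scale (0.334 and 0.546). In A549 cells it was at 0.760 CPM or less in every library and did not pass. ZNF749, also KRAB, rose in BEAS-2B filtered smoke by 0.53 ± 0.20 (0.0496) and fell in A549 cells. Its rise was lost in 10 of the 19 fits, among them each that left out 1 clean air or filtered smoke library of that line, and the sign turned with library size alone (−0.16).

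Members without a KRAB box made up 5 of 6 rises in A549 complete smoke, 10 of 10 in A549 filtered smoke, 6 of 8 in BEAS-2B complete smoke and 14 of 16 in BEAS-2B filtered smoke, and some of them fell strongly. ZNF608, a long gene with 1 C2H2 finger, went from 18.6, 18.2 and 22.6 CPM in A549 clean air to 4.58, 3.95 and 6.27 after complete and 3.68, 3.39 and 5.82 after filtered smoke. In BEAS-2B cells the values were 13.5, 27.0 and 25.9 CPM, then 4.73, 3.24 and 6.2, then 5.31, 4.12 and 3.59. No smoke library came near a clean air library in either line. The log2 fold changes were −2.0 ± 0.25 (adjusted p = 0.0014, edgeR), −2.19 ± 0.25 (7.31e-04), −2.18 ± 0.34 (0.003) and −2.34 ± 0.34 (0.00278), and each passed in all fits run.

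Its paralog ZNF609 went from 95.5 to 102 CPM in A549 clean air to 22.8 to 32.3 after complete smoke (−1.91 ± 0.22, adjusted p = 0.0011, edgeR) and 21.8 to 38.3 after filtered smoke (−1.80 ± 0.22, 8.88e-04). In BEAS-2B cells clean air library 1 lay at 14 CPM beside 39.7 and 48.0, and ZNF609 passed after filtered smoke (−1.72 ± 0.54, 0.0278) and not after complete smoke (−1.04 ± 0.53, 0.136), which became −2.07 (9.18e-04) without the 2 libraries that stood apart. Without any 1 of the 3 filtered smoke libraries or clean air library 2 or 3 the filtered smoke call was lost, with adjusted p up to 0.0959. ZNF618, which binds the methylation reader UHRF2, went from 47.4 to 54.6 CPM to 14.8 to 21.7 in A549 complete smoke (−1.47 ± 0.20, 0.00196) and from 8.44 to 19.6 CPM to 2.90 to 3.61 in BEAS-2B filtered smoke (−2.23 ± 0.41, 0.00501). ZNF827, which brings a deacetylase complex to telomeres, fell by 1.94 ± 0.31 (0.00329) and 1.67 ± 0.31 (0.00358) on the log2 scale in A549 and by 1.89 ± 0.48 (0.0134) in BEAS-2B filtered smoke, and in BEAS-2B complete smoke gave −0.88 ± 0.46 (0.147), which became −1.60 (0.00929) without complete smoke library 3.

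ZNF644, a partner of the histone methyltransferases EHMT1 and EHMT2, was at 43.4, 44.6 and 44.0 CPM in A549 clean air, 14.1, 18.4 and 24.8 after complete and 13.9, 13.6 and 22.9 after filtered smoke. The smoke libraries did not overlap with clean air, with changes of −1.19 ± 0.25 (adjusted p = 0.00912, edgeR) and −1.38 ± 0.25 (0.00325), and in BEAS-2B cells of −1.63 ± 0.45 (0.0209) and −2.02 ± 0.46 (0.00939). The BEAS-2B complete smoke call was lost without complete smoke library 1 or 2 or clean air library 2 or 3 (adjusted p up to 0.0749). ZNF638, which works with the HUSH silencing complex on foreign DNA, changed by −0.94 ± 0.20 (0.0107) and −1.001 ± 0.20 (0.00506) in A549 and −1.54 ± 0.34 (0.0091) and −1.72 ± 0.34 (0.00607) in BEAS-2B cells. The first of these was lost without A549 complete smoke library 2 (adjusted p = 0.0513).

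Within the ZMYND8 module ZNF592 changed by −0.69 ± 0.13 (adjusted p = 0.00531, edgeR) and −0.79 ± 0.13 (0.00205) in A549 and by −1.01 ± 0.23 (0.00999) and −0.77 ± 0.23 (0.0219) in BEAS-2B cells. The last call was lost without any 1 of the filtered smoke libraries or clean air library 2 or 3 (adjusted p up to 0.0915). ZNF532 changed by −1.10 ± 0.20 (0.00516) and −1.19 ± 0.20 (0.0024) in A549 cells and did not pass in BEAS-2B cells (−0.87 ± 0.43, 0.127, and −1.09 ± 0.43, 0.0599). ZNF687 passed in none of the 4 comparisons, with values from −0.46 ± 0.18 to −0.11 ± 0.14. Without the 2 BEAS-2B libraries that stood apart both passed in that line, ZNF532 with −1.61 (0.00255) and −1.37 (0.00289) and ZNF687 with −0.50 (0.0425) and −0.43 (0.0492). ZNF516, an activator of brown fat genes, fell by 1.31 ± 0.24 (0.0054), 1.19 ± 0.24 (0.00459), 1.10 ± 0.27 (0.0138) and 1.29 ± 0.27 (0.00742) on the log2 scale in the 4 comparisons, the third being lost without BEAS-2B clean air library 3 (0.0571).

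Among members that passed, ZNF593 had the highest fold change in A549 filtered smoke and under both aerosols in BEAS-2B cells. It is a gene of 1003 bases with 2 exons on chromosome 1, and stood at 8.68, 7.59 and 7.69 CPM in A549 clean air, 19.8, 20.1 and 11.5 after complete and 28.5, 26.6 and 13.9 after filtered smoke. In BEAS-2B cells it was at 60.8, 21.2 and 15.5 CPM in clean air, 291, 164 and 87.6 after complete and 255, 152 and 111 after filtered smoke. Every smoke library lay above every clean air library of its line. The log2 fold changes were 1.11 ± 0.29 (adjusted p = 0.0195, edgeR) and 1.53 ± 0.29 (0.00388) in A549 and 2.43 ± 0.62 (0.0151) and 2.36 ± 0.61 (0.0147) in BEAS-2B cells. The first was lost without A549 complete smoke library 1 or 2 or any 1 clean air library (adjusted p up to 0.0786) and in a fit of all 18 libraries (0.128), and those of BEAS-2B cells without clean air library 2 or 3 (up to 0.0616). With library size alone the BEAS-2B values were 1.78 and 1.76 and passed, and without the 2 libraries that stood apart they were 3.67 (2.94e-04) and 3.29 (3.41e-04).

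ZNF771 was the other member that rose in both lines under both aerosols. It stood at 2.19 to 2.92 CPM in A549 clean air, 3.7 to 5.95 after complete smoke (1.03 ± 0.31, adjusted p = 0.0304, edgeR) and 3.66 to 8.10 after filtered smoke (1.28 ± 0.31, 0.00919). In BEAS-2B cells it went from 3.48 to 7.15 CPM to 8.85 to 16.5 (1.47 ± 0.36, 0.0134) and 12.3 to 18.5 (1.63 ± 0.36, 0.00876). The A549 complete smoke call was lost without complete smoke library 1 or 2 or any 1 clean air library (up to 0.110) and in a fit of all 18 libraries (0.0604), and that of BEAS-2B complete smoke without clean air library 2 or 3 (0.0578 each). ZNF524, which binds telomeric repeats, rose in BEAS-2B cells from 2.05 to 3.46 CPM to 4.37 to 11.1 (1.55 ± 0.39, 0.0147) and 7.31 to 14.2 (1.87 ± 0.39, 0.00752), and in A549 filtered smoke by 0.96 ± 0.34 (0.043), with overlap of libraries there. The A549 call was lost without filtered smoke library 1 or 2, any 1 clean air library or complete smoke library 2 (up to 0.157), and that of BEAS-2B complete smoke without complete smoke library 1 or clean air library 2 or 3 (up to 0.0625). Its neighbours ZNF581 and ZNF784 in the same stretch of chromosome 19 rose after filtered smoke in A549 (1.02 ± 0.28, 0.0154, and 0.91 ± 0.32, 0.0401) and BEAS-2B cells (1.47 ± 0.52, 0.0421, and 1.02 ± 0.33, 0.0308). All 4 of these calls were lost without filtered smoke library 1 or clean air library 3 of their line, and with several other libraries left out, with adjusted p up to 0.143 for ZNF581 and 0.130 for ZNF784. With library size alone the BEAS-2B values were 0.81 (0.115) and 0.35 (0.222), and without the 2 libraries that stood apart both also passed in BEAS-2B complete smoke (2.14, 0.00187, and 1.39, 0.00358). ZNF581 shares 23% of its exon bases with another gene on the strand.

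**Figure D3:**
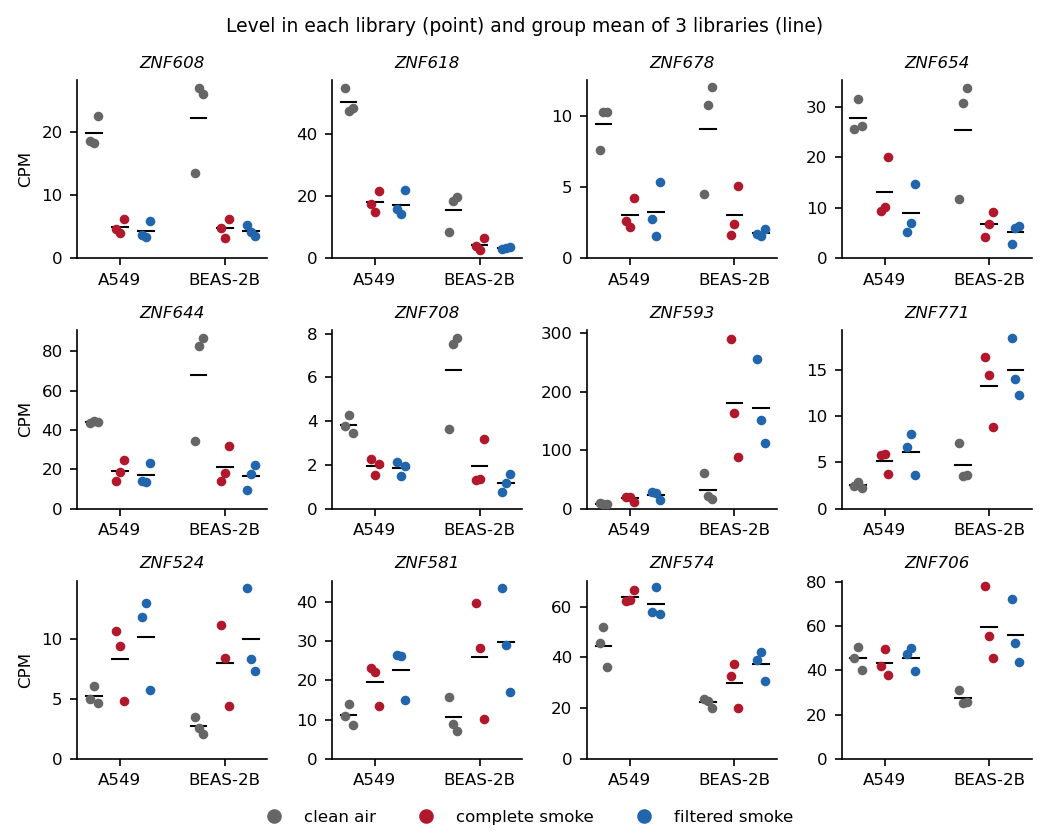
CPM of 12 members in each of the 18 libraries (points) with group means of 3 (lines), on linear axes from 0, for clean air (grey), complete smoke (red) and filtered smoke (blue). ZNF608, ZNF618, ZNF678, ZNF654, ZNF644 and ZNF708 sit lower after smoke and ZNF593 and ZNF771 higher in both lines, while ZNF706 passed in BEAS-2B and not in A549 cells, and its difference between the lines did not pass.

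Some rises were seen past the threshold in 1 line. ZNF706, a small protein with 1 finger known to hold back Klf4 in embryonic stem cells, rose in BEAS-2B cells from 25.4 to 31.2 CPM to 45.8 to 77.9 (1.12 ± 0.26, adjusted p = 0.0105, edgeR) and 43.6 to 72.4 (1.02 ± 0.26, 0.0127), and gave −0.06 ± 0.16 and 0.02 ± 0.16 in A549 cells. The difference between the lines was 1.20 ± 0.31 (0.0616) and 1.03 ± 0.31 (0.134) and did not pass. ZNF703, a corepressor of the NET family amplified in some breast cancers, rose in A549 cells from 23.9 to 26.6 CPM to 37.6 to 40.3 (0.62 ± 0.15, 0.0158) and 34.2 to 49.3 (0.73 ± 0.15, 0.00542), and gave −0.52 ± 0.25 (0.12) and −0.28 ± 0.25 (0.364) in BEAS-2B cells. That difference was −1.13 ± 0.30 (0.0644) and −0.99 ± 0.30 (0.129). The A549 complete smoke call of ZNF703 was lost without complete smoke library 2 or any 1 clean air library (up to 0.0586) and in a fit of all 18 libraries (0.0571), and the BEAS-2B filtered smoke call of ZNF706 without clean air library 2 or 3 (up to 0.0536). With library size alone ZNF706 did not pass in BEAS-2B cells (0.43, 0.066, and 0.34, 0.124).

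ZNF622, the ribosomal maturation factor, passed in none of the 4 comparisons (0.18 ± 0.14, 0.23 ± 0.14, −0.14 ± 0.29 and −0.07 ± 0.29), and without the 2 BEAS-2B libraries that stood apart gave 0.45 (adjusted p = 0.0493, edgeR) and 0.39 (0.0591) in that line. ZNF598, the ubiquitin ligase that marks collided ribosomes, passed in BEAS-2B filtered smoke (0.82 ± 0.26, adjusted p = 0.0282, edgeR) and gave 0.41 ± 0.25 to 0.60 ± 0.25 in the other 3, and in BEAS-2B complete smoke passed without those libraries (0.93, 0.00422). ZNF830, a splicing factor of a single exon, passed in A549 filtered smoke (0.44 ± 0.16, 0.0454), a call lost without any 1 A549 clean air or filtered smoke library (up to 0.166), and gave −0.19 ± 0.27 and −0.13 ± 0.27 in BEAS-2B cells. With the replicate block ZNF598 and ZNF830 also passed in A549 complete smoke (0.0173 and 0.0237) and ZNF598 in A549 filtered smoke (0.00198).

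Gene span moved with the response among members as among other genes. Spearman's rho between span and fold change, across genes, which are not independent replicates, was −0.46, −0.47, −0.39 and −0.48 over the tested members in A549 complete, A549 filtered, BEAS-2B complete and BEAS-2B filtered smoke, and −0.51, −0.50, −0.38 and −0.43 over other protein-coding genes. Medians follow for 4 equal classes of span, the shortest and the longest first. In the shortest class (up to 13.2 kb) the medians of other protein-coding genes were 0.50, 0.61, 0.61 and 0.69, those of members without a KRAB box 0.04, 0.22, 0.10 and 0.38, and those of KRAB members (19 in A549, 22 in BEAS-2B) −0.57, −0.67, −0.38 and −0.48. In the longest class (over 81.1 kb) the same medians were −0.52, −0.57, −0.57 and −0.72, then −1.19, −1.38, −1.32 and −1.77 for 11 or 12 members without a KRAB box, and −1.10, −0.96, −0.61 and −0.72 for 6 or 7 with one. KRAB members were thus the lowest of the 3 sets in the shortest class, while in the longest they lay above the other members in all 4 comparisons and level with other genes in BEAS-2B filtered smoke. Without the 2 libraries that stood apart the BEAS-2B medians of KRAB members, other members and other genes were −0.70, 0.24 and 1.01 after complete and −0.55, 0.39 and 0.95 after filtered smoke in the shortest class, and −0.90, −2.10 and −0.93, then −0.73, −2.06 and −0.84, in the longest. Whether span or any other property sets the response was not tested.

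**Figure D4:**
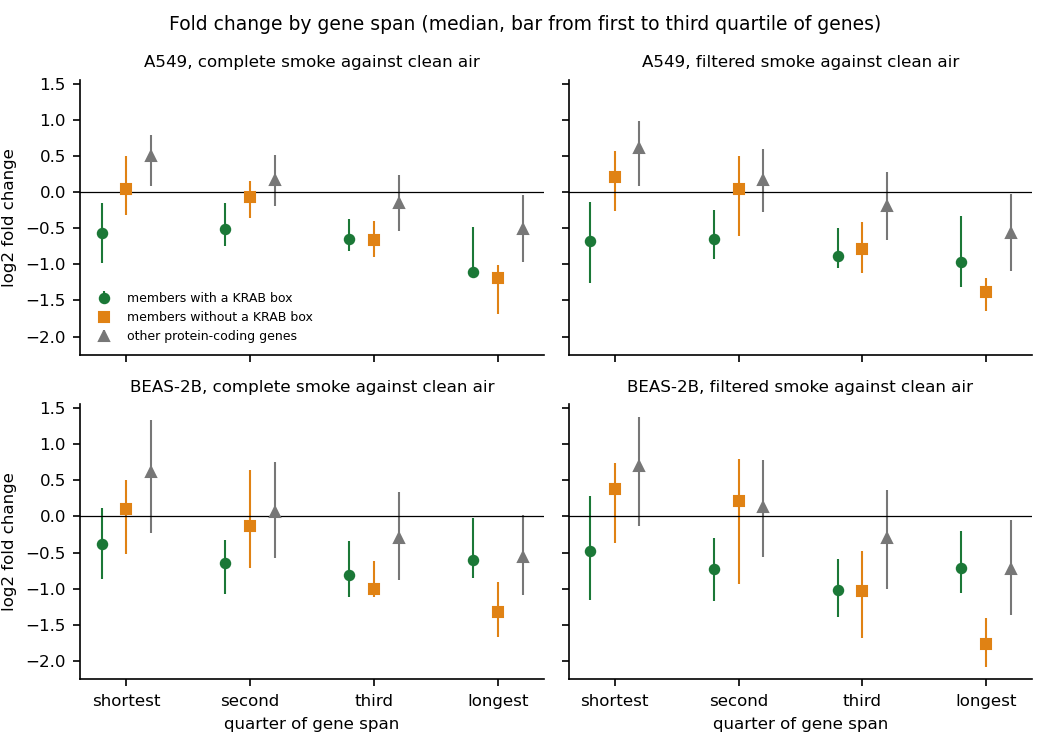
Median log2 fold change against clean air (points, bars from the first to the third quartile of genes) by class of gene span (4 classes of equal size), for members with a KRAB box (circles), members without (squares) and other protein-coding genes (triangles), in 4 panels of line and aerosol. In the shortest class KRAB members lie below 0 where other genes lie above it, at −0.57 against 0.50 in A549 complete smoke, and in the longest class they lie above the other members.

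On chromosome 19, other protein-coding genes had medians of 0.38, 0.48, 0.32 and 0.51 in the 4 comparisons, and members without a KRAB box 0.09, 0.39, 0.34 and 0.54 (16 or 15 tested), while KRAB members had −0.62, −0.70, −0.61 and −0.72. With library size alone the BEAS-2B medians above 0 would lie below it, since that scale shifts this line by more than their size. Without the 2 libraries that stood apart they were 0.62 and 0.64 for other genes, 0.76 and 0.88 without and −0.92 and −0.80 with a KRAB box. Of the clusters, the one at 36.2 to 37.8 Mb (ZNF565 to ZNF573, 19 of 20 with a KRAB box) gave 8 and 12 lower of 16 in A549 and 9 and 14 lower of 19 in BEAS-2B cells, none higher. The cluster at 57.2 to 58.4 Mb (22 members) gave 9 and 11 lower of 22 and 8 and 9 lower, with 2 higher in BEAS-2B filtered smoke. The largest, at 51.8 to 53.5 Mb with 27 KRAB members, gave 3 and 7 lower of 16 and 7 and 6 lower of 22, with ZNF880 the 1 higher. Of all genes 16.9% and 23.5% were lower in A549 and 19.5% and 24.9% in BEAS-2B cells. The largest cluster lay near these shares in A549 complete (18.8%) and BEAS-2B filtered smoke (27.3%), and above them in the others (43.8% and 31.8%). Without the 2 libraries that stood apart the BEAS-2B numbers lower were 16 and 16, 14 and 10, and 13 and 13 in these 3 clusters, against 31.7% and 31.3% of all genes. Other clusters rich in KRAB members varied. ZNF506 to ZNF738 (6 of 7 with a KRAB box) gave 2 and 2 lower of 3 in A549 and 3 and 4 of 7 in BEAS-2B cells. ZNF723 to ZNF726 (7 of 7) gave 1 and 2 of 3, then 2 and 3 of 5. ZNF786 to ZNF862 (5 of 5), on chromosome 7, gave 2 and 3 of 5, then 2 and 2 of 5. ZNF722 to ZNF680 (6 of 6), also there, gave 1 and 0 of 1, then 1 and 2 of 2. Without the 2 libraries that stood apart their BEAS-2B numbers lower were 4 and 4, 3 and 3, 2 and 2, and 2 and 2. ZNF558 to ZNF846 (7 members, 7 with a KRAB box) gave 1 and 2 lower of 6 in A549, with 1 higher after complete smoke. It gave 0 of 6 in BEAS-2B cells, and 2 of 6 lower under each aerosol without the 2 libraries that stood apart. ZNF653 to ZNF791 (12 of 13 with a KRAB box) gave 0 and 2 lower of 6 and 1 and 2 lower of 10. Without those libraries it gave 2 of 10 lower under each aerosol in BEAS-2B cells. The cluster at 55.5 to 56.7 Mb, where 3 of 12 members have a KRAB box and ZNF524, ZNF581 and ZNF784 lie, had medians of 0.18, 0.42, 0.12 and 0.54. Its BEAS-2B medians were 0.76 and 0.94 without those libraries. The 30 members that share over 10% of their exon bases with another gene on the strand had medians of −0.57, −0.75, −0.33 and −0.44, and the others −0.46, −0.61, −0.64 and −0.74.

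Beside the 16.9% and 23.5% of all genes lower in A549 and 19.5% and 24.9% in BEAS-2B cells, related families were counted. ZNF genes of other numbers (254) gave 59 and 87 lower of 207 in A549 (2 and 8 higher, medians −0.42 and −0.49) and 85 and 97 lower of 231 in BEAS-2B cells (9 and 10 higher, −0.71 and −0.73), or 28.5%, 42.0%, 36.8% and 42.0% lower. The ZBTB genes, zinc finger genes with a BTB domain and no KRAB box, gave 9 and 19 lower of 34 in A549 (none and 1 higher, −0.52 and −0.81) and 19 and 23 lower of 38 in BEAS-2B cells (none higher, −1.10 and −1.30), or 26.5%, 55.9%, 50% and 60.5% lower. Without the 2 libraries that stood apart 54.3% and 52.1% of the former and 73% of the latter under each aerosol were lower in BEAS-2B cells, against 31.7% and 31.3% of all genes. The difference between the families was not tested.

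The lines share no libraries, so their calls can be set side by side. Of 187 members tested in both, 55 fell in A549 and 67 in BEAS-2B cells after complete smoke, and 32 in both, which is 58.2% and 47.8% of the lists. After filtered smoke the numbers were 88, 85 and 66, or 75% and 77.6%. Over all 13927 genes tested in both lines the genes lower in both were 53.5% and 46.2% of the lists after complete and 67.7% and 63.7% after filtered smoke, and the difference from the members was not tested. None passed in opposite directions after complete smoke and 1, ZNF749, did after filtered smoke. Higher in both lines were ZNF593 and ZNF771 after complete smoke, and ZNF524, ZNF574, ZNF581, ZNF593, ZNF771 and ZNF784 after filtered smoke, none with a KRAB box. Pearson's r between the lines' fold changes, across genes as a description, was 0.718 and 0.837 over the 187 members and 0.711 and 0.798 over 13927 genes.

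**Figure D5:**
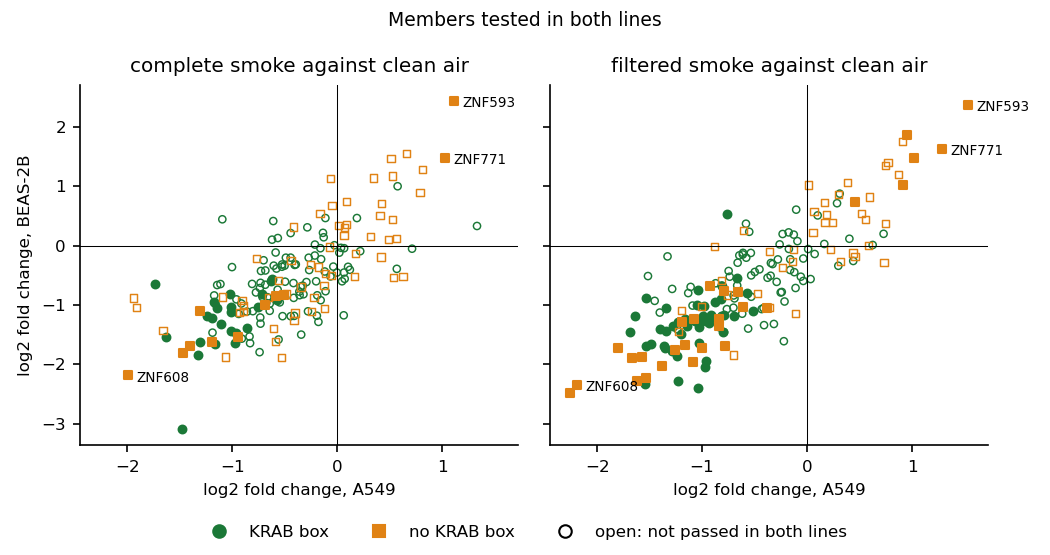
Log2 fold change against clean air in A549 (across) and BEAS-2B cells (up) for the 187 members tested in both lines, complete smoke left and filtered smoke right, circles with and squares without a KRAB box, filled where the gene passed in both lines. Most points lie in the lower left, and only squares are filled in the upper right.

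Complete and filtered smoke were not told apart in any member. Of 189 members in A549 and 220 in BEAS-2B cells, 0 passed in a direct comparison with edgeR, and 0 with DESeq2, as did 0% of all genes in edgeR. At an unadjusted p under 0.05 there were 3 and 2 members with edgeR and 2 and 3 with DESeq2, beside 236 of all 15244 and 222 of all 16356 genes with edgeR. This number moved with the setting in A549 cells. With edgeR it was 16 of 189 members with the replicate block and 40 of 192 without filtered smoke library 3, and 0 passed in either fit. The median log2 difference, complete minus filtered, was 0.12 in A549 and 0.07 in BEAS-2B members, and it turned to −0.0059 and −0.12 without complete smoke library 3 of the line. KRAB members had medians of 0.15 and 0.11, with 31 of 121 and 50 of 149 below 0. Members without the box had −0.03 and −0.04, with 35 of 68 and 40 of 71 below 0. The A549 KRAB median was 0.03 without complete smoke library 3 and 0.32 without filtered smoke library 3. For ZNF608 the groups stood at 3.95 to 6.27 and 3.39 to 5.82 CPM in A549 cells, overlapping libraries that differ less than either does from clean air.

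The responses of the 2 lines were compared member by member. Here too line cannot be told apart from medium, the series of sample names and counts per library. In the interaction test of edgeR (BEAS-2B minus A549) 1 of 218 members passed after complete smoke, against 1.74% of all genes in either direction, and 1 after filtered smoke, against 0.825%. These counts moved with the setting. With the replicate block 9 differences were above and 18 below 0 after complete smoke (10.3% and 9.68% of all genes) and 8 and 14 after filtered smoke (7.94% and 7.55%), and without the 2 libraries that stood apart 6 and 22 of 219 (11.1% and 10.4%) and 2 and 4 (2.35% and 2.80%). ZNF593 was among the 6, with 2.53 (adjusted p = 0.00918, edgeR). ZNF589, a KRAB gene known from blood stem cells, stood at 8.11, 7.28 and 8.0 CPM in A549 clean air and 6.96, 6.95 and 6.41 after complete smoke, and at 18.1, 19.4 and 19.6 CPM and 7.08, 9.56 and 8.30 in BEAS-2B cells. The difference in response was −0.996 ± 0.22 (adjusted p = 0.0313). ZNF749 stood at 10.3, 12.6 and 9.88 CPM and 5.34, 6.74 and 7.17 after filtered smoke in A549 cells, and at 5.07, 5.62 and 5.40 CPM and 8.94, 7.59 and 6.87 in BEAS-2B cells, a difference of 1.31 ± 0.30 (0.0486). Both calls were lost without any 1 of many libraries, as given in the closing section.

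The KAP1 silencing pathway was followed beside the members. Of its 26 genes 9 fell and 3 rose in A549 complete smoke, 11 fell and 6 rose in A549 filtered smoke, 7 fell and 2 rose in BEAS-2B complete smoke and 8 fell and 2 rose in BEAS-2B filtered smoke, with medians of −0.11, −0.15, −0.19 and −0.10. That is 34.6%, 42.3%, 26.9% and 30.8% lower, against 16.9%, 23.5%, 19.5% and 24.9% of all genes, and 11.5%, 23.1%, 7.69% and 7.69% higher, against 15.6%, 23.1%, 21.5% and 23.6%. Without the 2 libraries that stood apart 11 fell and 7 rose in BEAS-2B complete smoke and 10 fell and 6 rose in filtered smoke. TRIM28 was at 467 ± 52.1 CPM in A549 and 358 ± 39.0 in BEAS-2B clean air, and rose by 0.59 ± 0.19 (adjusted p = 0.0419, edgeR) and 0.63 ± 0.19 (0.0242) in A549, with 10 and 13 of 18 fits passing, and gave 0.24 ± 0.30 (0.539) and 0.47 ± 0.30 (0.215) in BEAS-2B cells, which turn to −0.48 and −0.22 with library size alone and to 0.65 (0.0373) and 0.64 (0.0303) without the 2 libraries that stood apart. SETDB1, the histone methyltransferase that KAP1 recruits, fell in A549 cells (−0.71 ± 0.14, 0.00698, and −0.70 ± 0.14, 0.00445) and gave −0.34 ± 0.17 (0.131) and −0.33 ± 0.17 (0.133) in BEAS-2B cells. ATF7IP, which stabilises SETDB1, fell by 1.08 ± 0.23 (0.0096) and 1.23 ± 0.23 (0.00366) in A549 and by 1.08 ± 0.38 (0.0439) and 1.37 ± 0.38 (0.0177) in BEAS-2B cells. Both BEAS-2B calls were lost without clean air library 2 or 3, among others (up to 0.138).

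Of the SUMO branch, which KAP1 needs to recruit its partners, SUMO2 rose by 0.84 ± 0.22 (adjusted p = 0.0201, edgeR) and 0.97 ± 0.22 (0.00781) in A549 and 1.08 ± 0.19 (0.00414) and 0.85 ± 0.19 (0.00869) in BEAS-2B cells, while the SUMO ligase PIAS1 fell by 1.11 ± 0.18 (0.00329), 1.07 ± 0.18 (0.00246), 0.86 ± 0.20 (0.0105) and 0.93 ± 0.20 (0.00753). The BEAS-2B rises of SUMO2 did not pass with library size alone (0.0598 and 0.339). Of the HUSH complex MPHOSPH8 fell in both lines (−0.60 ± 0.18, 0.0285, and −0.75 ± 0.18, 0.00854, in A549, −1.50 ± 0.22, 0.00253, and −1.41 ± 0.22, 0.00329, in BEAS-2B cells), with the first lost without complete smoke library 1 or 2 or any 1 clean air library (up to 0.114), and TASOR in all but BEAS-2B complete smoke (−0.78 ± 0.37, 0.116). The heterochromatin protein gene CBX5 fell in A549 cells (−1.23 ± 0.26, 0.0104, and −1.67 ± 0.27, 0.00207) and CBX1 passed in no comparison (−0.14 ± 0.17 to 0.17 ± 0.15).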

How the data were processed

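The deposited values are raw counts for each gene. The submitters' processing notes list STAR 2.7.10b and GRCh38, and the annotation release is not given in the sources used here. Column 4 (counts of 1 strand, 11.7 to 17.1 times those of the other) was used, and the 4 summary lines were left out. TruSeq mRNA libraries were made from TRIzol RNA, per the labels. Symbols came from the reference tables, 290 matching the rule and 255 protein-coding. The members and lists were chosen with earlier results of these data known.

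edgeR 4.0.16 (R 4.3.3) was run with filterByExpr, TMM and robust quasi-likelihood tests on the 9 libraries of a line (15244 and 16356 genes, biological coefficient of variation 0.209 and 0.299) and on all 18 for line differences (17703 genes, 0.258). Scripts were tested on simulated data. The KRAB box was scored with a weight matrix of 37 residues (cutoff 0, lowest member above it 9.84, highest below it −36.6). Named members are the up to 10 highest and lowest fold changes per smoke comparison that passed with at least 2 CPM, a count in every library and no overlap, up to 5 per direction for the others, the 8 of highest level per kb, and 21 fixed members with described roles. Of these, the text gives those the results turn on. Alternatives were DESeq2 1.42.0 size factors and Wald test, library size alone, no or a stricter filter, counts that ignore strand, a replicate block, a fit of all 18 libraries and each library left out. The fits reported as the main result used group means and no replicate block, so they ignore any pairing by number. Correlations of the deviations of same-numbered libraries were 0.232 to 0.824 in A549 cells, against −0.717 to 0.377 between different numbers. For BEAS-2B cells they were −0.167 to 0.736, against −0.722 to 0.547. The labels do not say what the number marks, and the block is given only as an alternative.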

Additional observations from a re-analysis of the deposited data

Results flagged for a closer look

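ZNF589 and ZNF749 differed between the lines in their response by the interaction test of edgeR over all 18 libraries. After complete smoke ZNF589 fell more in BEAS-2B cells, with a difference (BEAS-2B minus A549) of −0.996 on the log2 scale, and passed in 16 of 27 fits, with adjusted p from 1.59e-04 to 0.182. After filtered smoke ZNF749 gave a difference of 1.306 and passed in 10 of 27 fits, with adjusted p from 0.00104 to 0.152. The call of ZNF589 was lost without any 1 of the A549 complete smoke or clean air libraries, A549 filtered smoke library 2, BEAS-2B complete smoke library 1 or BEAS-2B clean air library 2 or 3. That of ZNF749 was lost without any 1 of the clean air or filtered smoke libraries of either line, A549 complete smoke library 1 or 2 or BEAS-2B complete smoke library 2. ZNF749 shares 12% of its exon bases with another gene on the strand.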

How the results depend on the processing

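Over the alternatives, 120 of 183 counts of members that passed stayed within 1.5 times the value reported, and the median log2 fold change of the members kept its sign in 177 of 183. Leaving out 1 library gave 15 to 89 members in A549 complete and 53 to 121 in A549 filtered smoke, 35 to 126 and 56 to 130 in BEAS-2B cells, 0 to 0 between the aerosols in both lines, and for line differences 0 to 4 (complete), 0 to 2 (filtered) and 97 to 116 (clean air). The replicate block gave 108 members in A549 complete smoke (125 in filtered), 139 in BEAS-2B complete smoke (156 in filtered), and 27 and 22 for the line differences in response. All genes with the block were 27.3% lower and 27.3% higher in A549 complete and 31.3% and 30.4% in A549 filtered smoke. For BEAS-2B complete smoke they were 32.7% and 30.4%, and for BEAS-2B filtered smoke they are not given here. A fit of all 18 libraries gave 38 in A549 complete smoke, with 8.65% of all genes lower and 5.88% higher. Library size alone gave 139 in BEAS-2B complete smoke and 10 and 5 line differences. Without BEAS-2B clean air library 1 and complete smoke library 3 there were 145 in BEAS-2B complete smoke and 28 and 6 line differences. For complete and filtered smoke the line differences numbered 2 and 0 with no filter, 2 and 2 with the stricter one and 9 and 4 with DESeq2. Signs turned with library size alone in BEAS-2B cells for HDAC1 (−0.47), SUV39H1 (−0.68) and ZNF768 (−0.52) after complete and ZNF749 (−0.16) after filtered smoke, and for ZNF622 after complete smoke without those 2 libraries (0.45). The cause was not tested. Counting depth limits the lowest members, where 3 counts correspond to up to 0.155 CPM in A549 clean air.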
